A study of Brassica rapa subsp. pekinensis with 6 samples.

Results

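The genes described here were 7 of the 35616 genes with reads, all annotated as pectin methylesterases (PMEs, also called pectinesterases) or as pectin methylesterase inhibitors (PMEIs). They were 2 copies of *VANGUARD1* (*VGD1*, *Bra000438* and *Bra040474*), 3 further pectinesterase genes (*Bra009264*, *Bra009921*, and *Bra034960*), and 2 PMEI genes (*Bra019903* and *Bra021235*). The names follow the best protein match that the study gave for each identifier. The 7 were picked from the genes the study lists as differentially expressed genes (DEGs), which had to differ strongly between the lines in these same libraries. Their difference between the lines is therefore given as a description, with its error and without a test.

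Pectin is a gel-like polysaccharide of the plant cell wall, and it is secreted into the wall with most of its acid groups masked by methyl esters. PMEs remove these methyl groups in the wall, and PMEIs bind the enzymes and block them, so that the balance of enzyme and inhibitor helps to set how stiff or how degradable the wall is. Flowers express many genes of both families, and in *Arabidopsis thaliana* VGD1, a pectinesterase, acts in pollen and is needed for normal pollen tube growth through the style.

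Flower buds of plants in full bloom were compared between *fsm*, a female-sterile mutant, and its wild type ‘FT’, a doubled-haploid line of Chinese cabbage (*Brassica rapa* subsp. *pekinensis*). The *fsm* line arose from ‘FT’ by ethyl methanesulfonate treatment of isolated microspores, so each line stands for 1 genotype. There were 3 libraries of *fsm* (M1, M2, and M3) and 3 of ‘FT’ (F1, F2, and F4), each from the mixed buds of several plants. The methods call them biological replicates, yet also state that RNA of the replicates was pooled before library construction, so the spread between libraries of a line may be partly technical.

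The deposited counts summed over genes to 28.1 to 29.4 M reads per library in *fsm* and 25.0 to 25.4 M reads in ‘FT’ (M, 1000000). These sums are not the numbers of reads sequenced, which were larger. The paper gives a lower mapped share of the clean reads in every ‘FT’ library than in any *fsm* library. Whether this bears on the values below was not tested. A count of 3 reads corresponded to 0.102 to 0.107 CPM (counts per 1000000 reads) in *fsm* libraries and to 0.118 to 0.120 CPM in ‘FT’ libraries, and such limits cover counting error only. Of the genes with reads in a library, 64.6% to 65.6% in *fsm* and 68.4% to 68.5% in ‘FT’ were covered by reads over more than 90% of their length. Whole buds hold many cell types, so fewer cells of a type and less RNA per cell cannot be told apart in any value below.

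For 4 of the 7 genes the study also ran quantitative real-time PCR, and it reports trends similar to those of the sequencing. The 8 primers, of 17 to 26 bases, are shown because they bound the only stretches of these genes that this second assay targeted. They are written 5′ to 3′, with the 5 bases at the 3′ end, where the polymerase starts, in capitals. Whether the *Bra000438* pair also primes on the other *VGD1* copy was not tested.
*Bra000438* forward: acagccgacggaaACGAA
*Bra000438* reverse: aagtatgactctacggtgaacCTCTC
*Bra009921* forward: actttcacctcccaCCCAT
*Bra009921* reverse: cgtaagaacacgaacCCACT
*Bra019903* forward: catccgccgccgTATTG
*Bra019903* reverse: gtggctcttcttgggTTCGT
*Bra021235* forward: ccacgaaagaaactaacCCTGC
*Bra021235* reverse: gccctggaccatctcCTGAC

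The pectinesterases did not move in one direction. The *VGD1* copies and *Bra009264* were 17.4 to 19.8 times lower in *fsm*, whereas *Bra009921* and *Bra034960* were 26.2 and 16.3 times higher. Both inhibitor genes were lower in *fsm*, *Bra021235* by 39.0 times and *Bra019903* by 16.7 times. In all 7 the 3 *fsm* libraries lay apart from the 3 ‘FT’ libraries, which was also true of 75.0% of all genes with reads. The 2 genes with more reads in *fsm* stand against 2.91% of all genes that were higher by 4 or more on the log2 scale and had an adjusted p-value no larger than 0.001 (edgeR's quasi-likelihood test), and the 5 with fewer reads against 2.34% that were lower by as much. Since this difference was what singled the members out, nothing follows from these counts.

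The *VGD1* copies carried most of the reads. *Bra000438* had 2134, 2145, and 2364 reads in M1, M2, and M3, and 36240, 34791, and 35881 reads in F1, F2, and F4. The fewest reads of an ‘FT’ library were thus far above the most of an *fsm* library. Normalized by edgeR's TMM method, this was 79.2 ± 5.40 CPM in *fsm* and 1382 ± 32.7 CPM in ‘FT’ (SD, n = 3 libraries each), and *fsm* over ‘FT’ was -4.12 on the log2 scale (standard error 0.06). The other copy, *Bra040474*, had 1235, 1184, and 1205 reads in the *fsm* libraries, against 23097, 21803, and 21309 in the ‘FT’ libraries. It averaged 43.2 ± 0.438 CPM in *fsm* and 855.6 ± 28.1 CPM in ‘FT’ (SD, n = 3 each), or -4.31 as log2 (standard error 0.07). Both copies have the same deposited gene length of 1791 bases. The counts are described as uniquely matched reads, which would leave out reads that match both copies equally. Whether this held for the 2 copies was not tested.

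Within each library, *Bra000438* was the copy with more reads. With uniquely matched reads, such shares rest on stretches that differ between the copies. It took 63.3% (M1, 95% Wilson interval 61.7% to 65.0%), 64.4% (M2, 62.8% to 66.0%), and 66.2% (M3, 64.7% to 67.8%) of the *VGD1* reads in *fsm*. In ‘FT’ it took 61.1% (F1, 60.7% to 61.5%), 61.5% (F2, 61.1% to 61.9%), and 62.7% (F4, 62.3% to 63.1%). The *fsm* shares all lay above the ‘FT’ shares, at 64.7% ± 1.47 and 61.8% ± 0.872 (SD, n = 3 each), but the gap between the M1 and F4 libraries was within their intervals.

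*Bra009264* is described as a pectinesterase family protein and was the least abundant of the 3 pectinesterases that were lower in the mutant. It had 106, 79, and 97 reads in M1, M2, and M3, against 1673, 1617, and 1520 in F1, F2, and F4. These values are 3.36 ± 0.456 CPM in *fsm* and 62.2 ± 2.36 CPM in ‘FT’ (SD, n = 3 each), a log2 difference of -4.21 (standard error 0.10). The size of its change was close to that of the *VGD1* copies, while its level in ‘FT’ was 62.8 RPKM (reads per 1000 bases of gene and 1000000 reads), against 790.9 and 489.7 RPKM for *Bra000438* and *Bra040474*.

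*Bra034960* and *Bra009921*, described by the same words, had the opposite pattern. *Bra034960* had 1710, 1720, and 1613 reads in the *fsm* libraries and 90, 96, and 100 reads in the ‘FT’ libraries. The spread within either line was small beside this difference, at 60.1 ± 1.91 CPM in *fsm* and 3.70 ± 0.232 CPM in ‘FT’ (SD, n = 3 each), with 4.02 as the log2 of their ratio (standard error 0.10). *Bra009921* had 134, 161, and 188 reads in *fsm* and only 4, 5, and 8 reads in ‘FT’. Its averages were 5.77 ± 1.04 CPM in *fsm* and 0.220 ± 0.0834 CPM in ‘FT’ (SD, n = 3 each), and its log2 fold change was 4.68. The standard error of 0.28 was the widest of the 7. Without F4, the ‘FT’ library with the most *Bra009921* reads, its log2 fold change was 5.02.

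The PMEI genes encode small proteins, and their deposited gene lengths were 507 bases for *Bra019903* and 384 bases for *Bra021235*. *Bra019903* had 148, 103, and 141 reads in M1, M2, and M3, against 1977, 1962, and 2089 in F1, F2, and F4. It averaged 4.67 ± 0.829 CPM in *fsm* and 77.9 ± 3.48 CPM in ‘FT’ (SD, n = 3 each), a log2 difference of -4.06 (standard error 0.10). M2 was the lowest of the 6 libraries for this gene. *Bra021235* had 8, 13, and 11 reads in *fsm*, against 363, 401, and 390 in ‘FT’, or 0.382 ± 0.0947 CPM and 14.9 ± 0.844 CPM (SD, n = 3 each). At -5.27 on the log2 scale (standard error 0.19), this was the largest decrease among the 7 genes.

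The study's limit for a DEG, 4 on the log2 scale in either direction, ran close to 2 of the members. *Bra034960* stood just inside at 4.02, and without F1 it was 3.98. *Bra019903* stood at -4.06, and without M2 it was -3.92. Of the related genes examined, those just outside the limit were *Bra009265* and *Bra014410*, at -3.85 and -3.84.

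**Figure D1:**
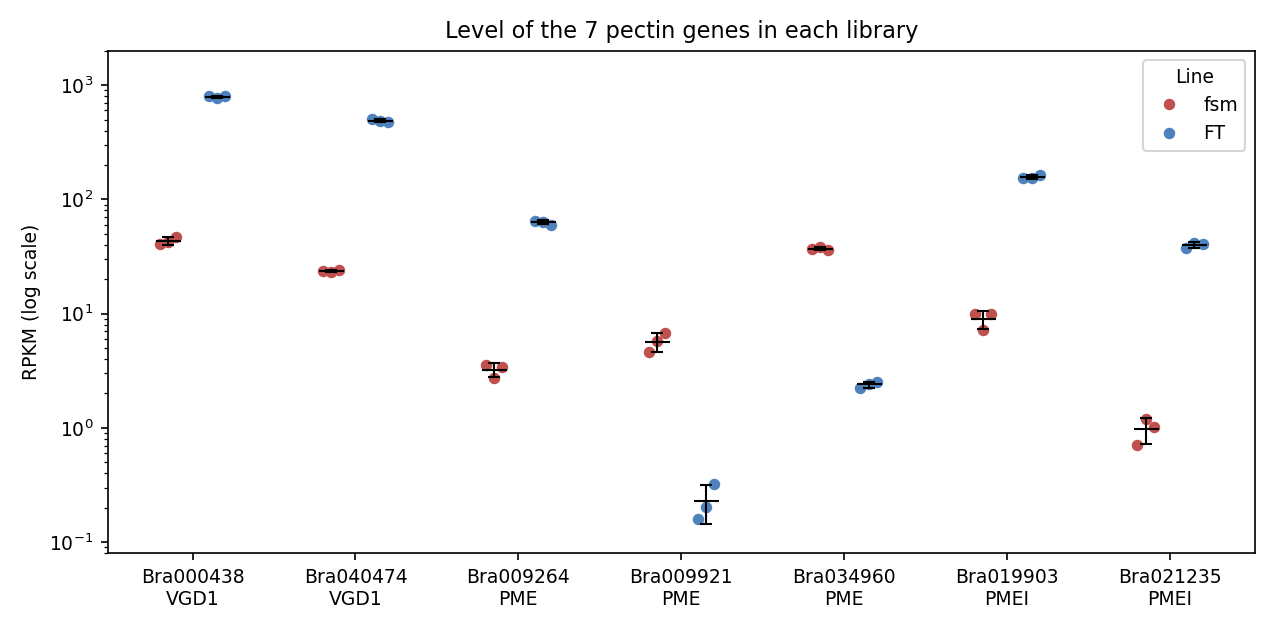
Level of the 7 genes in RPKM (log axis) in each library, with *fsm* (red) left of ‘FT’ (blue). Each point is 1 library, and the black bars give the mean and SD of 3 libraries. *Bra009921* and *Bra034960* are higher in *fsm*, and the other 5 genes are higher in ‘FT’.

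Levels were compared between genes on the RPKM scale, which corrects for gene length. In *fsm* the order of mean RPKM was *Bra000438* (43.2 ± 3.34, SD, n = 3), *Bra034960* (37.1 ± 0.969), *Bra040474* (23.5 ± 0.370), *Bra019903* (8.99 ± 1.61), *Bra009921* (5.69 ± 1.07), *Bra009264* (3.23 ± 0.439), and *Bra021235* (0.972 ± 0.243). In ‘FT’ the order was *Bra000438* (790.9 ± 14.4, SD, n = 3), *Bra040474* (489.7 ± 16.2), *Bra019903* (157.6 ± 6.34), *Bra009264* (62.8 ± 2.57), *Bra021235* (39.8 ± 2.32), *Bra034960* (2.40 ± 0.146), and *Bra009921* (0.228 ± 0.0853). In neither line did the libraries of neighbours in the order overlap. *Bra034960* was thus second in *fsm* and sixth in ‘FT’.

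Set against all genes with reads in a line, the *VGD1* copies were at the 85.4th and 74.1st percentile of mean RPKM in *fsm* and at the 99.8th and 99.5th in ‘FT’. *Bra034960* was at the 82.9th percentile in *fsm* and at the 32.3rd in ‘FT’. *Bra021235*, the smaller inhibitor gene, was at the 24.2nd percentile in *fsm* and at the 85.4th in ‘FT’. By percentile, *Bra034960* and *Bra021235* thus changed place more widely than the *VGD1* copies, and in opposite directions. A percentile near the top can move little while the level changes much, and the *VGD1* copies were 17.4 and 19.8 times lower in *fsm*.

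The make-up of the 5 pectinesterase members, which were picked for their change, differed accordingly. *Bra034960* made up 33.8%, 34.1%, and 30.9% of the summed RPKM of the 5 pectinesterase members in M1, M2, and M3, against 0.163%, 0.183%, and 0.189% in F1, F2, and F4. *Bra000438* made up 37.2%, 37.6%, and 40.0% in *fsm*, against 58.1%, 58.4%, and 59.8% in ‘FT’. The sum itself, counted in CPM, was 191.7 ± 5.21 in *fsm* and 2304 ± 46.7 in ‘FT’ (SD, n = 3 each), 12.02 times lower in *fsm* even with the 2 genes that were higher there. Over the 23 genes of the members and the lists of related genes below, *Bra034960* took 10.7% of the summed mean RPKM in *fsm* and 0.046% in ‘FT’.

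**Figure D2:**
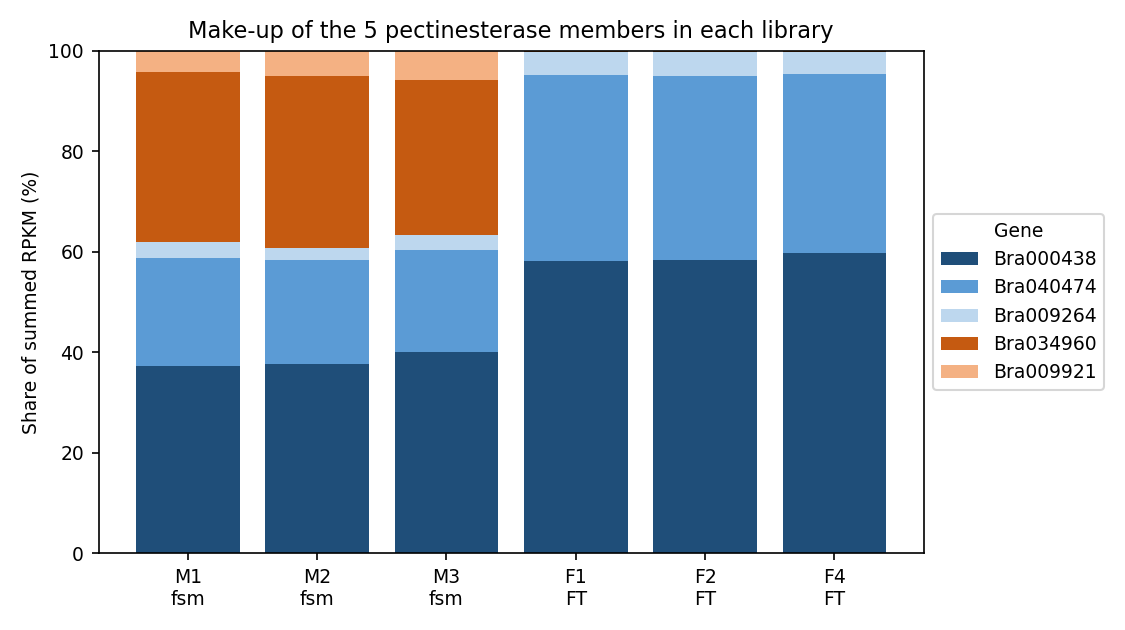
Share of each pectinesterase gene in the summed RPKM of the 5 pectinesterase members (stacked bars, percent), with the 3 *fsm* libraries left and the 3 ‘FT’ libraries right. *Bra034960* (dark orange) takes 30.9% to 34.1% in *fsm* and under 0.2% in ‘FT’, where it cannot be seen at this scale.

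Enzyme and inhibitor reads were set side by side in each library. The inhibitor members summed to 5.05 ± 0.752 CPM in *fsm* and 92.9 ± 3.88 CPM in ‘FT’ (SD, n = 3 each). Pectinesterase CPM per inhibitor CPM was 34.1, 45.6, and 36.0 in M1, M2, and M3, and 26.1, 24.7, and 23.7 in F1, F2, and F4, so that each *fsm* library had the higher ratio. Without the *VGD1* copies the ratio was 14.0 ± 2.54 in *fsm* and 0.713 ± 0.0507 in ‘FT’ (SD, n = 3 each), with *Bra034960* then the main part of the *fsm* sum. The ratio is one of message abundance over genes picked for their change, and no test was made of it.

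A measure that the choice of the members did not use was the part of the gene covered by reads. *Bra009264* stood apart in both lines, with 40.4%, 38.2%, and 37.3% of its length covered in M1, M2, and M3 and 60.3%, 54.7%, and 63.8% in F1, F2, and F4. Each value was compared with the genes of like depth in the same library, those with reads per base within 20% of its own. The median coverage of such genes was 92.5% to 94.7% in *fsm* libraries and 99.7% in each ‘FT’ library, and under 1% of them had lower coverage than *Bra009264* in any of the 6 libraries. The reads of this gene were thus heaped on a part of it, and its CPM and RPKM rest on that part. Whether the rest of the gene matches other loci, or is not transcribed as annotated, was not tested.

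The other members were covered much as genes of like depth. The *VGD1* copies were covered over 99.6% to 99.9% of their length in *fsm* and at least 99.89% in ‘FT’. *Bra034960* was covered over 98.0% to 98.6% in *fsm* and 92.2% to 95.1% in ‘FT’. For *Bra009921* the values were 93.2%, 98.2%, and 98.3% in *fsm*, and 29.6%, 32.6%, and 66.0% in ‘FT’, where it had few reads. *Bra021235* was covered over 69.8%, 96.4%, and 88.5% in *fsm*, from only 8 to 13 reads, and over 98.7% to 99.2% in ‘FT’.

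**Figure D3:**
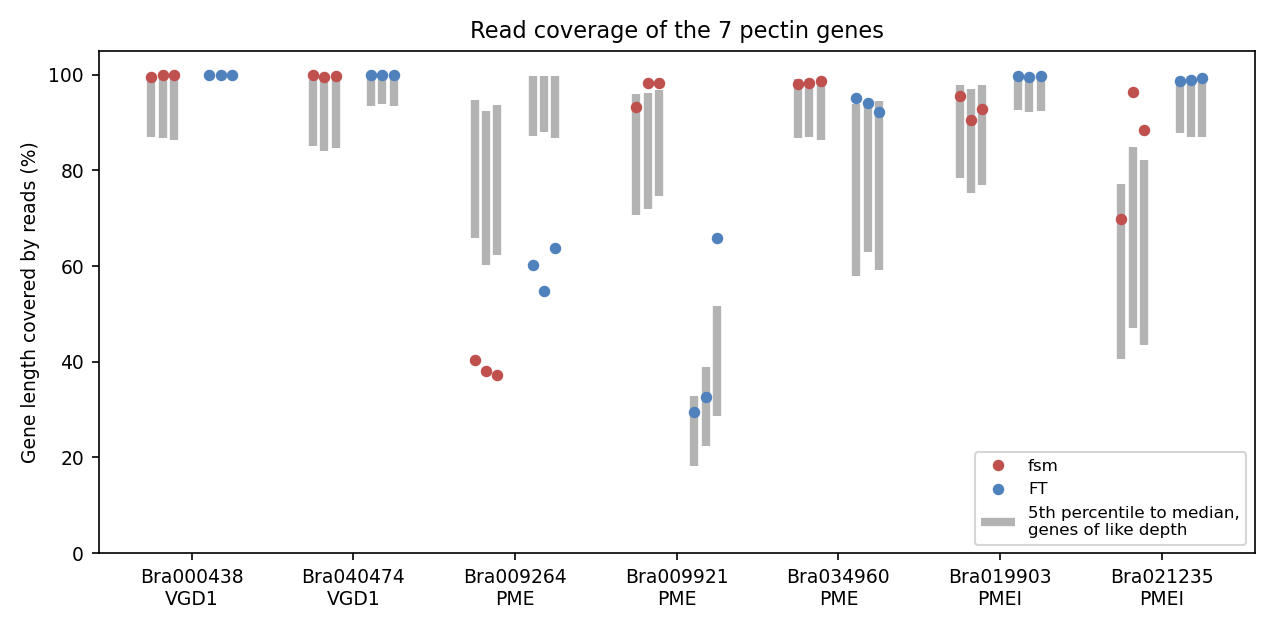
Percentage of gene length covered by reads for each member and library (points, *fsm* in red left of ‘FT’ in blue). Grey bars run from the 5th percentile to the median of the genes of like depth in that library, and only *Bra009264* lies below its bars in all 6 libraries.

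Other genes, alike by GO annotation or by description, were looked at in 2 lists. The first holds 6 genes besides the members, from the study's table of all detected genes. The table annotates them, like the *VGD1* copies, with a Gene Ontology (GO) carboxylesterase term together with cell wall and cell projection terms. These terms alone do not establish that a gene is a pectinesterase. That table was at hand only for the genes with the most ‘FT’ reads, so that its genes entered through the line in which they are high, and 2 of the 6 are also on the study's list of DEGs. Their direction is therefore tilted by the choice and is given as a description. All 6 were lower in *fsm* by 1 or more on the log2 scale at the same p-value limit, with a median log2 fold change of -3.85. Over all genes 18.0% were lower by as much and the median was -0.02, but these are no fair comparison for genes chosen in this way.

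*Bra014410*, the most abundant of these, had 3125, 2955, and 3224 reads in the *fsm* libraries M1 to M3, against 41176, 40841, and 41149 in F1, F2, and F4 (log2 fold change -3.84, standard error 0.06). *Bra009265* had 1835, 1599, and 1741 reads in *fsm*, against 23655, 22662, and 22418 in ‘FT’ (log2 fold change -3.85, standard error 0.06). In contrast to *Bra009264*, *Bra009265* was covered over 98.5% to 99.8% of its length in *fsm* and 99.9% in ‘FT’. *Bra004481* and *Bra028699* fell by 3.74 and 3.51 on the log2 scale. The list also held *Bra007665* and *Bra003491*, both described as VGDH2 (VANGUARD1 homolog 2), a relative of VGD1, with log2 ratios of -4.34 (standard error 0.07) for *Bra007665* and -4.72 (standard error 0.08) for *Bra003491*. Of the 6 genes, these were the 2 beyond the limit of 4.

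The second list holds the 12 other genes that the study's list of DEGs describes as pectinesterases or as PMEI family proteins. Its genes were selected on these libraries, so that their number and direction are not independent evidence. Of the 6 pectinesterases, 3 were higher and 3 lower in *fsm* at the limit of 4, and the median log2 fold change was -0.04, or -0.10 with the 2 genes that had no reads in 1 line set at their bound. Both medians fall in the gap between the genes that were higher and those that were lower, and no gene of the 6 lay near them. All 6 PMEI family genes were lower, with log2 fold changes of -5.97 to -4.14 and a median of -4.72. Together with the members, 5 pectinesterases were higher and 6 lower, and 8 of 8 inhibitor genes were lower. Over all genes, 2.91% were higher and 2.34% lower at the limit of 4. Genes of the families that fell short of the study's limits could not enter, so these counts do not describe the families.

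The pectinesterases with more reads in *fsm* were genes with few reads in ‘FT’. *Bra034140*, a match to the *Arabidopsis* pectinesterase PME25, had 190, 226, and 171 reads in M1, M2, and M3, against 16, 7, and 5 in F1, F2, and F4. *Bra037739* had 44, 48, and 43 reads in *fsm*, against 2 in each ‘FT’ library. *Bra020131* had 8, 8, and 10 reads in *fsm* and none in ‘FT’, and *Bra029170* had none in *fsm* and 9, 6, and 8 in ‘FT’. Set against a floor of 3 reads over the 3 libraries of a line, these were at least 7.61-fold higher and at least 8.73-fold lower in *fsm*, and that they pass the limit of 4 rests on fitted values that depend on the prior count. No pectinesterase of the second list with more reads in *fsm* came near *Bra034960* in level, the highest being *Bra034140* with 3.71 ± 0.529 RPKM in *fsm* and 0.201 ± 0.124 RPKM in ‘FT’ (SD, n = 3 each).

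Among the inhibitors, *Bra022089* showed the largest decrease, with 6, 10, and 14 reads in *fsm*, against 573, 536, and 650 in ‘FT’ (log2 fold change -5.97, standard error 0.18). *Bra017515* and *Bra024974* were the most abundant inhibitor genes of the list in both lines. *Bra017515* had 2.92 ± 0.715 RPKM in *fsm* and 84.9 ± 12.1 RPKM in ‘FT’, and *Bra024974* had 3.05 ± 0.287 RPKM in *fsm* and 80.8 ± 6.13 RPKM in ‘FT’ (SD, n = 3 each). *Bra009614*, *Bra003492*, and *Bra040908* had log2 fold changes of -4.14, -4.21, and -4.94, and the last had 3, 1, and 2 reads in the *fsm* libraries. PMEI family proteins include inhibitors of invertase, an enzyme that splits sucrose, and the descriptions do not tell which enzyme is the target.

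**Figure D4:**
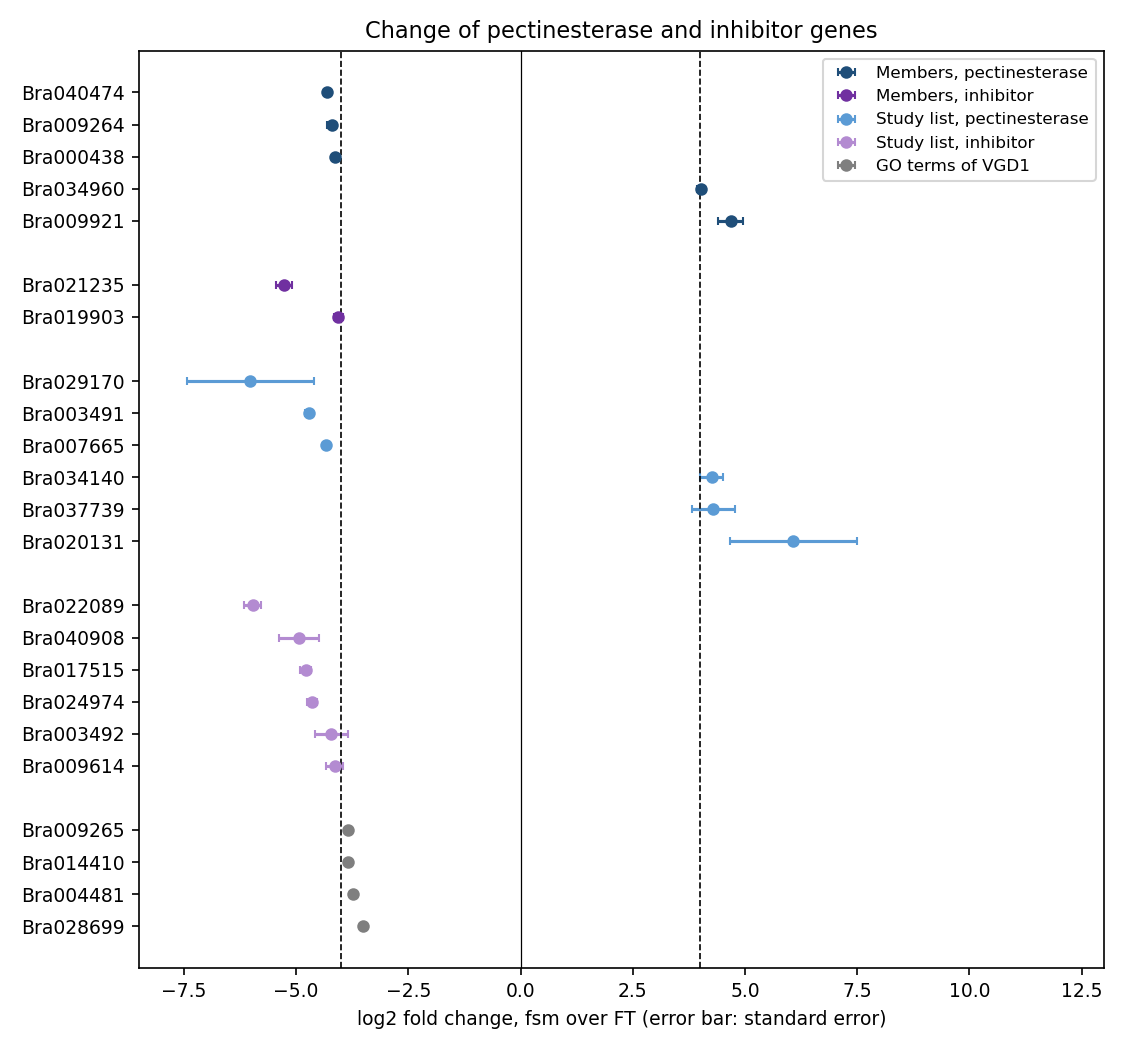
Log2 fold change of *fsm* over ‘FT’ (points) with its standard error (bars) from edgeR for the 7 members and the related genes, grouped by list, with dashed lines at the limits of -4 and 4. The inhibitor genes (purple), all chosen from the study's list of DEGs, lie left of -4, and pectinesterases (blue), chosen likewise, lie on both sides. The genes found by GO terms alone (grey) lie between -3.85 and -3.51. *Bra007665* and *Bra003491*, which are in both lists, are drawn once. The positions of *Bra020131* and *Bra029170*, with no reads in 1 line, depend on the prior count.

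Genes described as pollen proteins, among them polcalcins, were also on the study's list of DEGs. There were 12 of them, selected on the same libraries and by the same limits as the members, so that a large change follows from the choice. All 12 were lower in *fsm*, with log2 fold changes of -8.19 to -4.01. Over all genes, 2.34% were lower at the limit of 4, and nothing follows from the count. Their summed level was 78.4 to 90.5 CPM in *fsm* libraries and 1581 to 1611 CPM in ‘FT’ libraries. Reads were found in all 6 libraries for 11 of them, and *Bra028695*, a pollen coat protein, was at 0 in M2 and M3. The paper reports that *fsm* stamens held little pollen, that this pollen was viable, and that it gave seed on ‘FT’ plants. The part of pollen abundance or stage in the values of the *VGD1* copies and the other genes was not tested.

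The genes most like *Bra000438* and *Bra034960* over the 6 libraries were sought by the root mean square difference of centred log2(CPM + 1) values, among 16583 other genes with a mean of at least 10 CPM. The libraries of a line lay close together, so this difference mostly follows the change between the lines. That change was also what the members were chosen by, and the likeness is given as a description. For *Bra000438* these were *Bra016280*, *Bra037879*, and *Bra010567*, with differences of 0.03, 0.04, and 0.05, while the other *VGD1* copy had 0.10. *Bra016280* averaged 1.23 CPM in *fsm* and 37.8 CPM in ‘FT’, a log2 fold change of -4.94. *Bra037879* averaged 2.68 CPM in *fsm* and 63.5 CPM in ‘FT’ (-4.56), and *Bra010567* 10.6 CPM in *fsm* and 190.7 CPM in ‘FT’ (-4.16). The first and the second thus fell more than *Bra000438* (-4.12), and the 1 added to the CPM shrinks the change of genes with such low *fsm* levels. Both averaged under 10 CPM in *fsm* and passed the limit on the mean through ‘FT’. The smaller differences of these genes therefore do not show that they are more alike to *Bra000438* than the other *VGD1* copy is. For *Bra034960* the genes found were *Bra040152*, *Bra030057*, and *Bra037177*, with differences of 0.05, 0.05, and 0.06. Their log2 fold changes were 3.98 for *Bra040152*, 4.16 for *Bra030057*, and 4.03 for *Bra037177*. These 3 averaged under 10 CPM in ‘FT’ and passed the limit on the mean through *fsm*. The other member with more reads in *fsm*, *Bra009921*, had a difference of 0.64. Its log2 fold change was 4.68, against 4.02 for *Bra034960*. At 0.220 CPM in ‘FT’, its change is strongly shrunk by the added 1, so the 0.64 does not show an unlike pattern.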

How the data were processed

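The authors aligned clean reads to the reference genome (version 1.5) with SOAPaligner/SOAP2 and deposited, for each library, a count of reads described as uniquely matched to each gene, without normalization. The deposited RPKM values are those counts scaled by gene length and by the library's total of counts. In each library that total is above the number of uniquely matched reads that the paper gives. It is also above the paper's number of all mapped reads, and why was not tested. The counts may therefore hold more than the uniquely matched reads. The deposited coverage gives how much of a gene's length has reads, in percent, with values slightly above 100 for a few genes. Gene lengths are all multiples of 3, as coding lengths are. Genes not listed were taken as 0 reads.

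Counts were scaled by TMM and tested by edgeR 4.0.16 under R 4.3.3 (quasi-likelihood test, Benjamini-Hochberg adjustment over 35616 genes, all 6 libraries, no covariates, no filter). The standard error is the absolute log2 fold change divided by the root of the F statistic. The study's DEG limits were applied, 4 on the log2 scale in either direction with 0.001 as the upper bound on adjusted p. The tests were tried on simulated counts, where few genes were changed, equally many up and down, and none with few reads. These data differ from that setting, so the trial does not bear on calls among genes with few reads. Libraries of a line differed by more than sampling noise (chi-square per gene 3.02 to 7.37, where 1 is noise alone, against 374.8 to 387.6 between lines) and were counted separately.

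The members and lists were chosen with earlier results of these data known. The genes named are the 7 members, the genes of the lists, and the 3 genes most like each of 2 members. The reference table at hand is of another assembly and matched 1 of the identifiers and none of the members, so that a list of pectinesterases from it could not be made, and no gene sequence or position is given. The alternatives were DESeq2 1.42.0 size factors and test, total counts, edgeR's low-count filter, a prior count of 2, log2(RPKM + 1) and log2(RPKM + 0.1) in limma 3.58.1, the replicate number as a block, and leaving out each library.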

Additional observations from a re-analysis of the deposited data

How the results depend on the processing

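The 7 members kept their direction under all 15 alternatives, and the 6 genes with the GO terms of *VGD1* kept their call under all 15. Of the members, 7 passed both limits in the reported fit, and 4 did with limma on log2(RPKM + 1), where *Bra009264*, *Bra009921*, and *Bra034960* were below 4. *Bra034960* was also below 4 with total counts (3.95), a prior count of 2 (just under 4), limma on log2(RPKM + 0.1) (3.90), and without F1, and *Bra019903* without M2. Over all genes, 1873 were called, against 1177 with limma on log2(RPKM + 0.1), 497 with limma on log2(RPKM + 1), and 1156 with a prior count of 2, and 336 of the 497 were higher in *fsm*, against 1038 of the 1873. Leaving out 1 library gave 1708 to 1818. Of the 12 related genes on the study's list, 7, 5, and 7 were called under those 3 settings, and 9 to 11 without 1 library. A pseudocount or prior count shrinks the fold change of genes with few reads by construction. The ratio of pectinesterase to inhibitor CPM was 38.6 in *fsm* and 24.8 in ‘FT’, and on deposited RPKM it was 11.5 and 6.83, since inhibitor genes are short. Without the *VGD1* copies it was 14.0 in *fsm* and 0.713 in ‘FT’. Leaving out 1 library gave 35.0 to 40.8 in *fsm* and 24.2 to 25.4 in ‘FT’.

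The lines share replicate numbers 1 and 2 alone, and no source states that they mark a shared batch. Deviations from the line means correlated at -0.06 and 0.08 in these pairs. With the number as a replicate block over these 4 libraries, 1750 genes were called, and without the block, an alternative chosen after seeing the data, 1579. The members' calls did not change. Depth limits *Bra009921* in ‘FT’ and *Bra021235* in *fsm*, which rest on 4 to 13 reads a library.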

Other observations

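The 7 members and both lists of related genes hold 23 different genes. Together they took 0.0514%, 0.0513%, and 0.0556% of all reads counted over genes in M1, M2, and M3, against 0.805%, 0.777%, and 0.779% in F1, F2, and F4. Ranked by mean RPKM among these 23 genes, *Bra014410* and *Bra009265* led in both lines, at 62.6 ± 3.31 and 54.8 ± 3.22 RPKM in *fsm* and at 944.5 ± 7.62 and 829.4 ± 16.5 RPKM in ‘FT’ (SD, n = 3 each). *Bra034960* ranked 4 in *fsm*, and its range there (36.3 to 38.2 RPKM) lay within that of the VGDH2 gene *Bra007665* (31.9 to 39.5 RPKM), while in ‘FT’ *Bra034960* had 2.40 ± 0.146 RPKM and *Bra007665* 749.7 ± 43.9 RPKM (SD, n = 3 each).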
